A study of Mus musculus with 4 samples.

Results

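The genes described here encode mouse potassium channel subunits outside the Kv3 (Kcnc) family, with their accessory subunits. They were taken by name from the gene symbols of the count tables, by the letters of their subfamilies (Kcna, Kcnb and Kcnd to Kcnk, Kcnma, Kcnmb, Kcnn, Kcnq, Kcns to Kcnv), with Kcnip1 to Kcnip4 and Kcnrg, and without antisense and overlapping transcripts. This gave 87 genes of the 32531 names listed. Of these, 66 passed a mean of at least 10 counts over the libraries and were tested, and 21 did not, of which 7 had no count in any library.

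The samples form 1 group of 4 libraries of ribosome-bound RNA from the deep cerebellar nuclei of adult, untreated Slc17a6-TRAP mice (line JX883), with 3 mice per library. In translating ribosome affinity purification (TRAP), a transgene puts an EGFP-tagged ribosomal protein (Rpl10a) into chosen cells, here under Slc17a6, the vesicular glutamate transporter gene of glutamatergic neurons, and tagged polysomes are pulled down with antibodies against EGFP. All libraries are pulldowns of the same line, so no control genotype, whole-tissue RNA or other cell type is compared here. What can be reported is therefore each level, how genes compare inside one library, and how a library departs from the rest. The labels do not say whether the pools of mice were separate, so p-values measure the spread between these libraries only. In bulk RNA of this kind, fewer cells of a type and less RNA per cell cannot be told apart.

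Potassium channels let potassium leave the cell and so bring the membrane back toward rest. Which subunits a neuron makes sets how sharply it repolarises after a spike, how long it stays silent and how readily it fires again. Neurons of the cerebellar nuclei fire spontaneously and fast and carry the output of the cerebellum, and calcium-activated potassium channels are known to pace that firing. Pore subunits of the Kcna, Kcnb, Kcnd, Kcnh and Kcnq subfamilies open on depolarisation. Kcnma1 and the Kcnn genes encode calcium-activated channels, Kcnt genes sodium-activated ones, Kcnj genes inward rectifiers and Kcnk genes tandem-pore leak channels.

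Counts assigned to genes ranged from 9621762 to 10988373 per library, and the channel genes held 0.335 to 0.417% of them. A gene with no count may still be present at up to 0.273 to 0.312 counts per 1000000 assigned counts (CPM), the level of 3 counts, with counting error only. Rn45s, the ribosomal RNA precursor, took 4.99, 14.2, 13.6 and 4.92% of counts in replicates 1 to 4. The 10 markers of glutamatergic nuclear neurons were all at or above 1 CPM in every library, and their sum ranged from 2599 to 3107 CPM. Slc17a6 itself stood at 2143 ± 153 CPM (SD, n = 4). Markers of other cells were also present. Granule cell markers summed to 892, 1344, 2138 and 1057 CPM in replicates 1 to 4, and Purkinje cell markers to 1763, 1990, 3747 and 1512 CPM, with all 9 and 8 of 11 genes at 1 CPM in every library. The Purkinje sum came mostly from Itpr1, Rgs8, Aldoc and Car8, with means of 886, 607, 299 and 293 CPM. The other markers of that list averaged from 0.529 CPM (Pcp4) to 89.9 CPM (Foxp2), with Pcp2 at 6.99 CPM. Astrocyte and Bergmann glia markers (8 of 10) summed to 582, 911, 1439 and 823 CPM, and oligodendrocyte markers (10 of 10) to 508, 769, 1251 and 1050 CPM. Inhibitory nuclear neuron markers (4 of 7) ranged from 103 to 397 CPM in sum. Microglia markers (2 of 9) did not exceed 50.2 CPM in sum, and C1qa was at 0 in every library. Midbrain markers summed to 2586 CPM in replicate 1, against 63.4 to 118 CPM in replicates 2 to 4, of which Tcf7l2 alone gave 2486 CPM in replicate 1.

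Promoter sequences are shown for 3 of the 7 highest channel genes, those whose window lies before the annotated gene, and for Kcnn4, which had no count, to set an abundant against an undetected channel gene by sequence. They are the 250 bases before the gene start in the RefSeq promoter table (GRCm38.p6), 5′ to 3′ on the gene's strand, with CG pairs in capitals. Kcna6 is a Kv1 pore subunit and its window lies at chr6:126740675-126740924 on the minus strand. Kcng4 is a silent subunit of Kv2 channels, at chr8:119635681-119635930 on the minus strand. Kcnk1 is a tandem-pore channel gene, at chr8:125994852-125995101 on the plus strand. Kcnn4 encodes a calcium-activated channel known mainly from blood cells and epithelia, at chr7:24370013-24370262 on the plus strand.
Kcna6: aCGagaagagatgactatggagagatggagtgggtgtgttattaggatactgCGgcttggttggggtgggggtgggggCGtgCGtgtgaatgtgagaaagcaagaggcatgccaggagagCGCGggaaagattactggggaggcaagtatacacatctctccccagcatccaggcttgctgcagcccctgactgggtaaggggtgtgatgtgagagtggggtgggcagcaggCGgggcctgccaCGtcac
Kcng4: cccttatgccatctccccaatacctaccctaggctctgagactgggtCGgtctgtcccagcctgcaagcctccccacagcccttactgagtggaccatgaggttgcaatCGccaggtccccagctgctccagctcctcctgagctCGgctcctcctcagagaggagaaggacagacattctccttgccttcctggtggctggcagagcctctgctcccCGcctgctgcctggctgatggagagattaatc
Kcnk1: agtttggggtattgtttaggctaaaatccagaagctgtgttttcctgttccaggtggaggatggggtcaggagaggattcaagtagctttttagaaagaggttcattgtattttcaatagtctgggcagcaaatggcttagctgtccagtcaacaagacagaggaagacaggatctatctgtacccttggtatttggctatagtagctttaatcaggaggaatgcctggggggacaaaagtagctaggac
Kcnn4: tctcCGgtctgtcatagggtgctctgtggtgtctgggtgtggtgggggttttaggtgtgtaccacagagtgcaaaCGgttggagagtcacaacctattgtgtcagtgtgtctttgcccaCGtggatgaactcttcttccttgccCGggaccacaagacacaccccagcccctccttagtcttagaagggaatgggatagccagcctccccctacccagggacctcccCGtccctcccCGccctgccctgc
The windows of Kcna6, Kcng4, Kcnk1 and Kcnn4 hold 8, 4, 0 and 6 CG pairs, so in these examples the undetected Kcnn4 has fewer than Kcna6 and more than Kcng4 and Kcnk1. The promoter table matched 64 of the 87 channel genes. Over all 64 the median was 8.0 CG pairs, against 6 over the 27025 genes with a promoter listed. Channel genes at or above 1 CPM in every library had a median of 14 pairs (n = 35), and the other channel genes 6 (n = 29). All genes were not split by level in this way, so whether that difference is particular to channel genes was not tested. Some of the 64 windows, such as those of Kcna2 and Kcnip4, lie inside the annotated gene. The letters TATAAA, searched on both strands, were in 2 of the 64 windows (3.12%), and in 13% of all promoters of that length.

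Levels between genes are given per length, as counts divided by the union of the gene's exons in kb (GENCODE release M21) and scaled to 1000000 per library (TPM). The channel genes together stood at 3012 ± 249 TPM (SD, n = 4). In all, 47 of the 87 genes (54.0%) reached 1 CPM in every library, as did 34.5% of all names. The level was concentrated in few genes: the 2 highest held 27.6% of the summed level, the 5 highest 46.6%, the 10 highest 64.5% and the 20 highest 83.6%. By subfamily, Kcna genes held 33.0% of the sum, Kcnj 12.1%, Kcnip 11.8%, Kcnk 10.7%, Kcng 7.25%, Kcnh 5.59% and Kcnd 5.14%. The 7 genes with no count were Kcna7, Kcne1, Kcne3, Kcnj1, Kcnk18, Kcnk7 and Kcnn4.

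**Figure D1:**
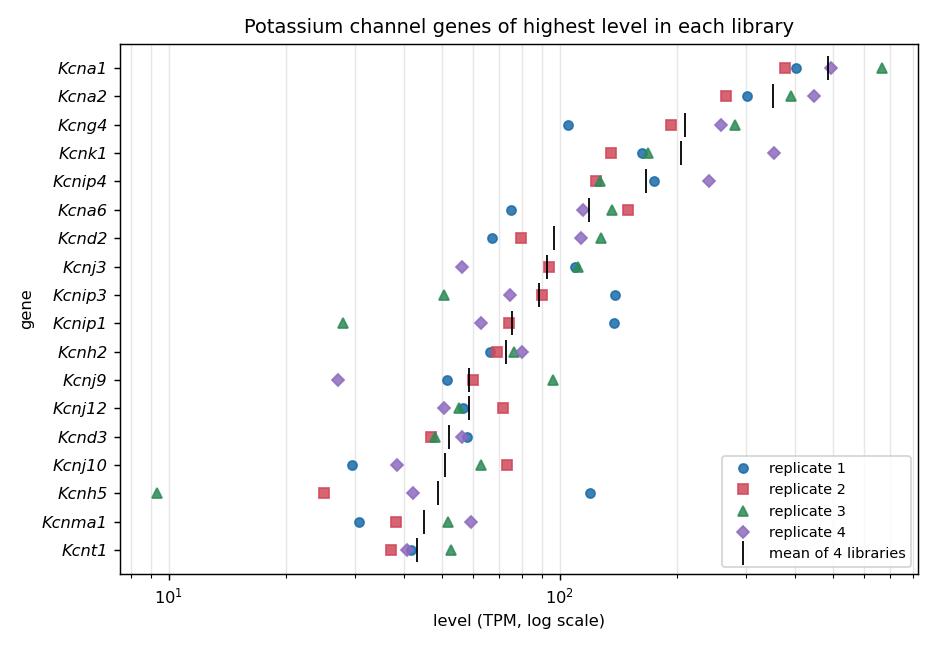
Level of the channel genes of highest mean (TPM, log scale; 2 of the 20 highest are not shown), with a point for each library and a bar for the mean of 4. Kcna1 and Kcna2 lead in every library, and the spread between libraries is widest for Kcnh5, from 9.31 to 120 TPM.

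**Figure D2:**
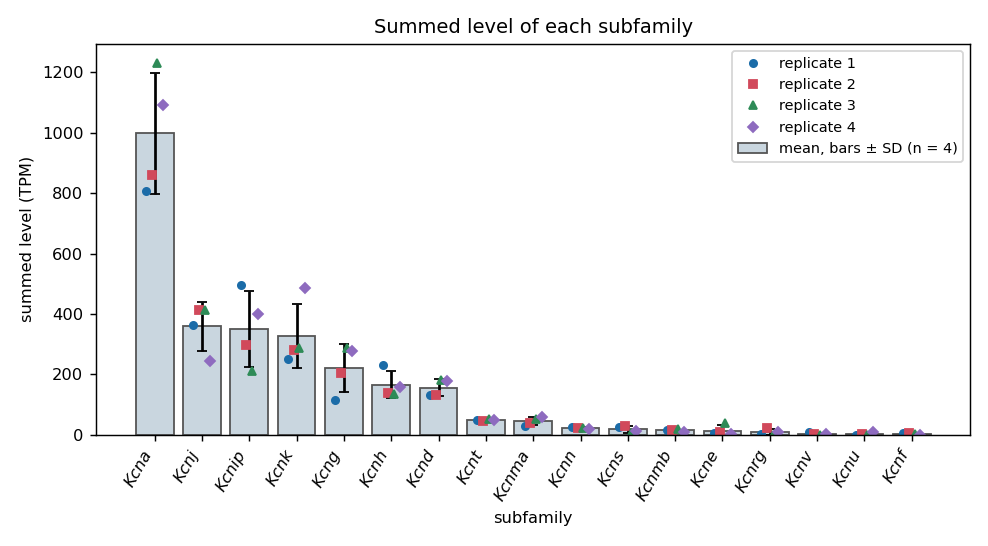
Summed level of each subfamily shown (TPM; Kcnb and Kcnq are left out), with bars for the mean, error bars for the SD over 4 libraries and a point for each library. Kcna genes sum to 806 to 1233 TPM, above every other subfamily shown in each library.

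Set against the median gene of the same library on the log2(CPM + 0.5) per kb scale, 20 of the 66 tested channel genes were higher, 36 were lower and 10 did not pass (limma's moderated test, Benjamini-Hochberg over all genes tested, threshold 0.05, two-sided). Among all 13075 genes tested, 38.6% were higher and 37.8% lower. The median difference of the channel genes from the median gene was -1.11, against -0.06 for all genes. Kcna1 lay 4.35 above the median gene (SE 0.18, limma adjusted p = 2.98e-09), Kcna2 3.89 above (SE 0.19) and Kcng4 3.08 above (SE 0.24). At the low end of the tested genes, Kcnh3 lay lower by -4.56 (SE 0.68, limma adjusted p = 0.000116). Kcnh3 had 40, 8, 0 and 0 counts in replicates 1 to 4 and reached the mean of 10 counts only through replicate 1. Its values in replicates 3 and 4 are set by the pseudocount, so the size of its difference is not read. An exact sign-flip test of a single gene over 4 libraries can give no p under 0.125, so the calls rest on variances pooled across genes.

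The Kv1 genes Kcna1 and Kcna2 were the most abundant channel genes. Their subunits form low-threshold channels that limit spiking and cluster along axons, and mutations of the human KCNA1 gene cause an episodic ataxia. Kcna1 (chromosome 6, 126640397 to 126646384, minus strand) had 402, 377, 669 and 495 TPM in replicates 1 to 4. Kcna2 (chromosome 3, 107101146 to 107115005, plus strand) had 302, 266, 390 and 447 TPM. Kcna1 was above Kcna2 in each library, by a log2 difference of 0.46 (SE 0.24) that did not pass (limma, adjusted p = 0.0770). The order depends on the length used. Per longest transcript the difference was 0.67 (limma, adjusted p = 0.0133), and without replicate 4 it was 0.57 (limma, adjusted p = 0.0323). Per coding length it was -0.84 (limma, adjusted p = 0.00364), and with no division by length -0.86 (limma, adjusted p = 6.59e-05). Most of the exon length of Kcna2, 11906 bases in all, lies outside its 1497 coding bases, and Kcna1 has 4780 and 1485.

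Of the other Kcna genes, 4 of the 5 comparisons with Kcna2 gave a lower gene, 0 a higher one and 1, that of Kcna1, did not pass. Of all genes tested, 93.9% were lower than Kcna2. Kcna6 had 75.0, 149, 136 and 115 TPM in replicates 1 to 4, lowest in replicate 1. It lay below Kcna2 in each library, by a log2 difference of -1.57 (SE 0.27, limma adjusted p = 1.46e-05). Its exons overlap a gene on the opposite strand (Gm26673), and the strand of the counting is not given. Exons of Kcnip4, Kcnj3, Kcnj9, Kcnk1 and Kcnma1 likewise overlap genes on the opposite strand. So do, among others, those of Kcnd3, Kcnh3, Kcnh7, Kcnj6, Kcnk2, Kcnk3, Kcnmb4, Kcnn1, Kcnn2, Kcnq5 and Kcnt2. Kcna3, Kcna4 and Kcna5 lay between -5.55 and -4.17 from Kcna2 on the log2 scale. Kcna3 was uneven, with 10.7, 42.3, 7.72 and 27.0 TPM. Kcna10 had 6 counts, all in replicate 2.

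Kcnb genes encode Kv2 pores, the delayed rectifiers of cell bodies and dendrites, and Kcnf, Kcng, Kcns and Kcnv genes encode silent subunits that form no channel alone but modify Kv2. Kcng4 (chromosome 8, 119623854 to 119635680, minus strand) had 105, 192, 282 and 259 TPM in replicates 1 to 4, lowest in replicate 1. It was the highest of the silent subunits in every library and lay 3.08 above the median gene on the log2 scale (SE 0.24, limma adjusted p = 3.6e-07). Kcnb2, a Kv2 pore, had 5.26, 7.03, 6.81 and 8.61 TPM and lay -1.73 from the median gene (SE 0.37, limma adjusted p = 0.00129), a call lost with no division by length (-0.0031). Of the other silent subunits, Kcns2 had the highest mean, with 12.5, 16.4, 4.23 and 6.33 TPM. Kcng3, with 3.46, 4.43, 5.31 and 8.71 TPM, was above it in replicates 3 and 4. Kcns3 had 6.26, 11.2, 0.33 and 5.96 TPM, where replicate 3 rests on 2 counts. Kcnv1 led its subfamily at 7.59, 1.56, 0.69 and 3.49 TPM, and Kcnf1 had 5.55, 4.92, 1.10 and 0.39 TPM.

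Kcnd genes encode Kv4 pores, which carry the fast transient A-type current, and Kcnip genes encode calcium-binding proteins that bring Kv4 to the surface and slow its inactivation. Kcnd2 (chromosome 6, 21215503 to 21729805, plus strand) had 67.1, 79.7, 128 and 113 TPM in replicates 1 to 4. Kcnip4 had 174, 124, 127 and 240 TPM, Kcnip3 138, 89.9, 50.7 and 74.6 TPM, and Kcnip1 138, 74.2, 27.8 and 62.8 TPM. Kcnd2 was highest in replicate 3 and lowest in replicate 1, and Kcnip1 and Kcnip3 ran the other way round. Against Kcnd2, 1 of 6 genes was higher, 3 were lower and 2 did not pass, where 10.5% of all genes were higher and 73.8% lower. Kcnip4 was the higher one, by 0.77 (SE 0.30, limma adjusted p = 0.0203). It lost the call without replicate 1 (0.57, limma adjusted p = 0.105), without replicate 2 (adjusted p = 0.0597) or without replicate 4 (adjusted p = 0.0734), and with no division by length (0.27, adjusted p = 0.383).

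Kcnd3, with 57.8, 46.7, 48.1 and 56.2 TPM, lay lower than Kcnd2 by -0.85 (SE 0.31, limma adjusted p = 0.0147). Kcnd3 was no longer called without replicate 2 (limma, adjusted p = 0.0559), without replicate 3 (-0.67, adjusted p = 0.0712), per longest transcript (-0.43, adjusted p = 0.203) and per coding length (-0.012, adjusted p = 0.972), and with no division by length the sign turned (0.044, adjusted p = 0.890). Kcnd1, at 6.56 ± 1.66 TPM (SD, n = 4), lay -3.78 from Kcnd2 (limma, adjusted p = 2.22e-07). Kcnip2 had 46.3, 8.55, 4.38 and 20.9 TPM, highest in replicate 1, and lay -2.67 from Kcnd2. Kcnip1 and Kcnip3 differed from Kcnd2 by -0.53 (SE 0.39) and -0.17 (SE 0.34), which did not pass (limma, adjusted p = 0.207 and 0.638). Kcnip1 was called in both directions, at 1.21 per coding length (limma, adjusted p = 0.00685) and at -1.04 without replicate 1 (adjusted p = 0.00599). Kcnip3 was called lower with no division by length (-0.71, limma adjusted p = 0.0285). The Kcnip1 difference ran from 1.03 in replicate 1 to -2.18 in replicate 3.

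Kcnq genes encode pores of which several form the M-current, a slow current that damps repetitive firing. Kcnq3, one of these, had 12.9, 11.1, 5.92 and 18.9 TPM, lowest in replicate 3. It lay -1.02 from the median gene (SE 0.36, limma adjusted p = 0.0224), a call lost without replicate 2 (-1.01), without replicate 3 (-0.69), with no filter on low counts (-0.29) and per coding length (-0.25), and the sign turned with no division by length (0.66). Kcnq5, which can also take part in the M-current, had 22.1, 23.9, 27.4 and 27.2 TPM, a narrow spread. Its difference from the median gene of 0.13 (SE 0.23) did not pass (limma, adjusted p = 0.622). With no filter it was 0.86 and with no division by length 0.88, both called, and the sign turned per longest transcript and per coding length (both -0.17). Kcnq1, known from heart and epithelia, had at most 8 counts in a library. Kcne genes encode small accessory subunits, mostly of Kcnq channels, and Kcne4 had 4.37, 5.98, 7.11 and 1.60 TPM. Kcne1l had 96 counts in replicate 3, against 1, 0 and 0 counts in replicates 1, 2 and 4, and reached the mean of 10 counts through replicate 3 alone.

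Kcnh genes encode the ether-à-go-go channels, of which Kcnh2, Kcnh6 and Kcnh7 are the erg type, known for slow deactivation. Kcnh2 (chromosome 5, 24319589 to 24351604, minus strand) was steady, with 66.2, 69.2, 76.3 and 80.2 TPM. Kcnh5, of the eag type, was the least even of the 20 highest genes, with 120, 24.9, 9.31 and 42.0 TPM. Its difference from Kcnh2 ran from 0.85 in replicate 1 to -2.95 in replicate 3, with a mean of -1.12 (SE 0.48) that did not pass (limma, adjusted p = 0.0512). It passed without replicate 1 (-1.77), per longest transcript (-1.32), with no division by length (-1.37) and with a pseudocount of 1 (-1.09). Kcnh1, also of the eag type, averaged 29.5 ± 5.81 TPM (SD, n = 4) and was lower than Kcnh2 by -1.31 (SE 0.23, limma adjusted p = 0.000328), but by -0.48, no longer called, per coding length. In all, 5 of 6 tested genes were lower than Kcnh2 and 0 higher, where 70.3% of all genes were lower. That direction follows from the choice of Kcnh2, which had the highest mean level of the set. Kcnh7 had 8.95, 7.95, 7.96 and 8.08 TPM, a narrow spread at a low level. Kcnh3 and Kcnh8, of the elk type, were highest in replicate 1 (3.36 and 5.20 TPM) and had no count in replicate 3.

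**Figure D3:**
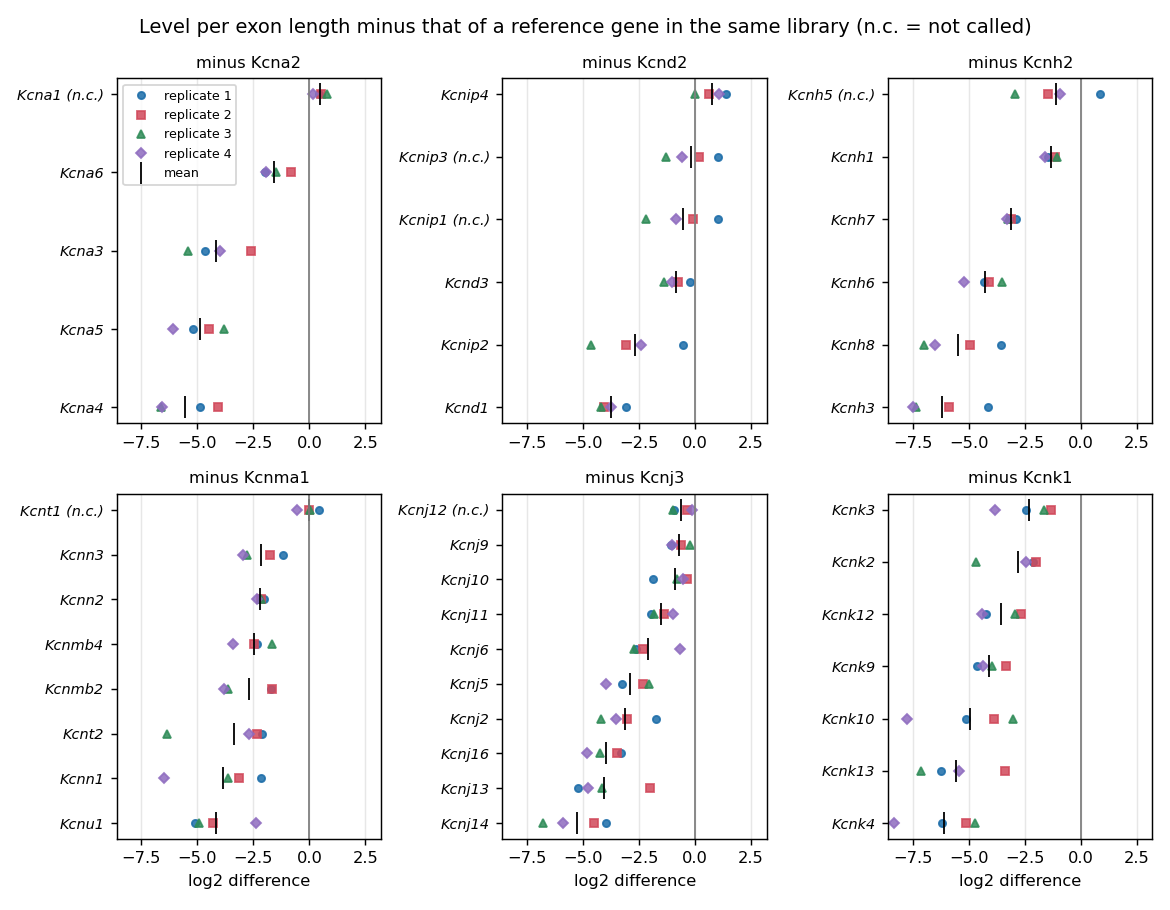
Difference of each tested gene from a reference gene in the same library, on the log2(CPM + 0.5) per kb scale, with a point for each library and a bar for the mean of 4; n.c. marks genes that limma did not call. Kcnip4 is the called gene that lies above its reference, by 0.77.

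Kcnma1 encodes the BK channel, opened by calcium and voltage together, and Kcnn genes encode the SK channels, opened by calcium through calmodulin, which underlie the pause after a spike. Kcnma1 (chromosome 14, 23289431 to 24014491, minus strand) had 30.7, 38.1, 51.8 and 59.4 TPM. The sodium-activated channel gene Kcnt1 had 41.7, 37.1, 52.8 and 40.6 TPM. Kcnt1 and Kcnma1 differed by -0.024 (SE 0.31, limma adjusted p = 0.945), and the sign was not the same in all libraries. Kcnt1 was called lower than Kcnma1 per coding length (-0.86, limma adjusted p = 0.0189) and with no division by length (-0.86, adjusted p = 0.00527). Against Kcnma1, 7 of 8 tested genes were lower and 0 higher, where 52.6% of all genes were lower. Kcnma1 had the highest mean level of this set, so the lower direction follows from the choice of reference. Kcnn3 and Kcnn2 averaged 9.73 ± 2.93 and 9.44 ± 2.11 TPM (SD, n = 4), and lay -2.18 and -2.19 from Kcnma1 (limma, adjusted p = 0.000516 and 0.000256). Kcnn1 had 6.32, 3.69, 3.54 and 0.10 TPM, where replicate 4 rests on 1 count. Of the BK beta subunits, Kcnmb4, the neuronal one, had 5.38, 6.17, 15.3 and 4.82 TPM, and Kcnmb2 averaged 6.61 ± 3.82 TPM (SD, n = 4). Kcnmb1, the smooth muscle subunit, and Kcnmb3 had at most 2 counts in a library. Kcnt2 had 98, 96, 3 and 127 counts in replicates 1 to 4. Kcnu1, a relative of Kcnma1 known from sperm, had 2, 9, 7 and 84 counts.

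Kcnj3, Kcnj5, Kcnj6 and Kcnj9 encode the inward rectifiers opened by G proteins, through which transmitters such as GABA slow firing. Kcnj3 (chromosome 2, 55435970 to 55598145, plus strand) had 110, 93.7, 111 and 56.2 TPM, lowest in replicate 4. Kcnj9 had 51.5, 60.02, 95.9 and 27.1 TPM, also lowest in replicate 4, and lay below Kcnj3 in each library by -0.74 (SE 0.30, limma adjusted p = 0.0260). Per longest transcript (-0.59) Kcnj9 was no longer called, nor without replicate 1 (-0.63) or replicate 2 (-0.77). Kcnj6 had 17.1, 18.3, 16.4 and 35.4 TPM, highest in replicate 4, and Kcnj5 had 11.04, 18.1, 26.3 and 3.02 TPM, lowest in replicate 4. The 4 genes were thus not high and low in the same libraries.

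The strong inward rectifier gene Kcnj12 had 56.6, 71.6, 55.3 and 50.6 TPM and differed from Kcnj3 by -0.61 (SE 0.30), which did not pass (limma, adjusted p = 0.0617). It was called lower than Kcnj3 per coding length (-1.61, limma adjusted p = 3.53e-05), without replicate 4 (-0.77, adjusted p = 0.00499) and with no division by length (-1.53, adjusted p = 2.01e-05). Kcnj2, of the same type, had 32.1, 11.02, 5.59 and 4.42 TPM, highest in replicate 1. Kcnj11, the pore of ATP-sensitive channels, averaged 30.4 ± 3.76 TPM (SD, n = 4), and Kcnj8, its vascular relative, had at most 12 counts. Kcnj10, known as the glial inward rectifier, had 29.4, 73.3, 62.9 and 38.4 TPM and lay -0.90 from Kcnj3 (SE 0.32, limma adjusted p = 0.0115), a call lost without replicate 1 (-0.57) and per coding length (-0.44). The sum of astrocyte and Bergmann glia markers was also lowest in replicate 1, at 582 CPM, but highest in replicate 3 at 1439 CPM. Of these markers, Gfap, Slc1a2, S100b, Sox9 and Glul were lowest in replicate 1. Slc1a3, Gja1 and Gdf10 were instead lowest in replicate 4, Aqp4 in replicate 2 and Aldh1l1 in replicate 3. The part of glia in the Kcnj10 level was not tested. Kcnj16, the partner of Kcnj10, had 10.6, 7.81, 5.20 and 1.32 TPM. Of the 10 tested Kcnj genes, 9 were lower than Kcnj3 and 0 higher, where 73.1% of all genes were lower. That direction follows from the choice of Kcnj3, which had the highest mean level of the set. Kcnj4 had 36 of its 37 counts in replicate 1, and Kcnj15 had 13 counts, all in replicate 2.

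Kcnk genes encode leak channels that set the resting potential. Kcnk1 (chromosome 8, 125995170 to 126030685, plus strand), of the TWIK type, had 162, 135, 168 and 353 TPM, highest in replicate 4. The 7 other tested Kcnk genes were all lower than Kcnk1, where 85.3% of all genes were. Kcnh2, Kcnma1, Kcnj3 and Kcnk1 each had the highest mean level of the set compared with them. The lower direction in those sets therefore follows from the choice of reference. Kcnk3, an acid-sensitive TASK channel, had 29.1, 54.0, 54.2 and 24.4 TPM and was lower than Kcnk1 by -2.31 (SE 0.44, limma adjusted p = 1.86e-07). Kcnk2, of the mechanosensitive TREK type, had 36.7, 33.5, 6.15 and 65.1 TPM, and Kcnk10, of the same type, had 4.46, 8.94, 20.4 and 1.34 TPM. Kcnk2 was thus lowest where Kcnk10 was highest, in replicate 3, and highest where Kcnk10 was lowest, in replicate 4. The TASK gene Kcnk9 averaged 11.8 ± 4.37 TPM and Kcnk12 16.1 ± 6.17 TPM (SD, n = 4). Kcnk4 shares exon bases with Catsperz on its own strand, so its 5 to 49 counts are uncertain. Kcnk5, Kcnk6, Kcnk15 and Kcnk16 had at most 12 counts in a library. Kcnrg, whose product hinders channel assembly, had 14, 79, 3 and 32 counts in replicates 1 to 4.

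**Figure D4:**
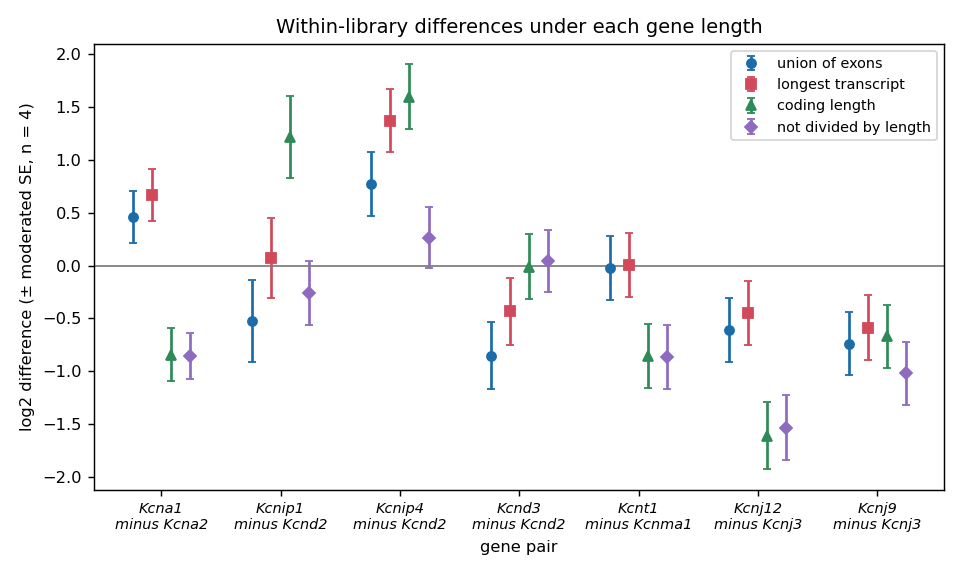
Difference within a library between gene pairs under 4 gene lengths, as log2 differences with moderated SE (n = 4). Kcna1 lies above Kcna2 per exon union or longest transcript and below it per coding length or with no division by length, whereas Kcnj12 lies below Kcnj3 under all 4.

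The channel genes had a wider median spread between libraries than all genes tested. The median coefficient of variation of the level was 53.0% over the 66 tested channel genes, against 37.7% over all 13075 genes, at a median level of 11.99 TPM against 23.1 TPM. Of the tested channel genes, 33.3% spanned more than 10-fold between their highest and lowest library, against 13.5% of all genes. Among these channel genes, Kcne1l, Kcng1, Kcnh3, Kcnh8, Kcnj13, Kcnj14, Kcns1 and Kcnu1 reached the mean of 10 counts only through their highest library. Their wide span follows from that filter, which was the same for all genes. The lower level of the channel genes goes with the wider median spread, and its part was not tested. The highest library of a gene was replicate 1 for 17 channel genes, replicate 2 for 13, and replicates 3 and 4 for 18 each. These are 25.8, 19.7, 27.3 and 27.3% of the tested channel genes, near the 25.1, 19.3, 30.8 and 24.8% of all genes.

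Each library in turn was compared with the remaining 3 by edgeR's quasi-likelihood test, and 0 of the 66 channel genes were called in any of the 4 comparisons, at a threshold of 0.05 on p adjusted over all 13724 genes tested. Of all genes, 0.00729% were called in replicate 1 and 0.00% in replicates 2, 3 and 4. At an unadjusted p under 0.05, edgeR gave 5 channel genes in replicate 1 (3.17% of all genes), 0 in replicate 2 (0.430%), 10 in replicate 3 (7.15%) and 9 in replicate 4 (15.4%). DESeq2 called 0 channel genes in replicate 1 (0.197% of all genes), 0 in replicate 2 (0.0656%), 4 in replicate 3 (0.647%) and 2 in replicate 4 (3.05%). With 1 library against 3 the test has 2 residual degrees of freedom, and the single library is assumed to vary like the others.

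In replicate 1 the genes at an unadjusted p under 0.05 were Kcnh5, Kcnip1, Kcnip2 and Kcnj2, at higher levels, and Kcng4, at a lower level. Kcnh5 stood at 120 TPM in replicate 1, against 24.9, 9.31 and 42.0 TPM in replicates 2, 3 and 4. Its log2 fold change was 2.19 (SE 0.69, edgeR, unadjusted p = 0.0110, adjusted p = 0.9998). With no filter on low counts it was called (edgeR, adjusted p = 0.0270). Kcng4 stood at 105 TPM in replicate 1, against 192, 282 and 259 TPM, a log2 fold change of -1.23 (SE 0.43, edgeR unadjusted p = 0.0178, adjusted p = 0.9998). In replicate 1 the midbrain marker sum is high through Tcf7l2. The other 10 midbrain markers summed to 100 CPM in replicate 1, against 93.1, 21.5 and 109 CPM in replicates 2, 3 and 4. That sum mixes opposite patterns. Pou4f1 stood at 19.3 CPM in replicate 1, against 0.485, 0.479 and 0.182 CPM in replicates 2, 3 and 4. Barhl1 (26.1 CPM, against 3.88, 3.55 and 0) and En1 (29.6 CPM, against 8.54, 4.12 and 6.19) were also highest in replicate 1. Th, Slc18a2 and Nps were instead higher in replicates 2 and 4 than in replicate 1. The part of such cells in the channel gene levels was not tested.

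In replicate 3, DESeq2 called Kcnk2, Kcnt2 and Kcnh5 lower. Kcnk2 stood at 6.15 TPM in replicate 3, against 36.7, 33.5 and 65.1 TPM in replicates 1, 2 and 4. Its log2 fold change was -2.98 (SE 0.70, edgeR adjusted p = 0.441; DESeq2 adjusted p = 0.00550). edgeR called Kcnk2 with no filter on low counts (adjusted p = 0.0124) and without replicate 1 (adjusted p = 0.0248). Kcnh5 stood at 9.31 TPM in replicate 3, against 120, 24.9 and 42.0 TPM, a log2 fold change of -2.82 (SE 0.87, edgeR adjusted p = 0.520; DESeq2 adjusted p = 0.0493). Kcnt2 had 3 counts in replicate 3, against 98, 96 and 127 counts in replicates 1, 2 and 4 (DESeq2, adjusted p = 0.0179). The fourth gene called there, Kcne1l, passed the count filter only through its 96 counts in replicate 3, against 1, 0 and 0 counts in the others, so nothing is read from that call. The other genes at an unadjusted p under 0.05 with edgeR in replicate 3 included Kcnip1, Kcnip2, Kcnq3 and Kcns3, at lower levels, and Kcnk10, at a higher level. In replicate 3 the Purkinje, granule, astrocyte and oligodendrocyte marker sums were also at their highest of the 4 libraries, and their part in these levels was not tested.

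In replicate 4, DESeq2 called Kcnk1 higher and Kcnk10 lower. Kcnk1 stood at 353 TPM in replicate 4, against 162, 135 and 168 TPM in replicates 1, 2 and 3. Its log2 fold change was 1.33 (SE 0.32, edgeR adjusted p = 0.214; DESeq2 adjusted p = 0.0325). Kcnk10 stood at 1.34 TPM, against 4.46, 8.94 and 20.4 TPM, a log2 fold change of -2.91 (SE 0.99, edgeR adjusted p = 0.254; DESeq2 adjusted p = 0.0457). Kcnj5 and Kcnj9 were lowest and Kcnj6 and Kcnip4 highest in replicate 4, each at an unadjusted p under 0.05 with edgeR and an adjusted p between 0.249 and 0.301. Kcna2, Kcnu1 and Kcnn1 were the remaining genes at that unadjusted p, of which Kcnu1 passed the count filter only through replicate 4, with Kcna2 at 447 TPM in replicate 4, against 302, 266 and 390 TPM in replicates 1, 2 and 3 (log2 fold change 0.63, SE 0.28, edgeR adjusted p = 0.324). In replicate 4 the Purkinje and inhibitory marker sums were at their lowest, at 1512 and 103 CPM, and their part was not tested. Replicate 4 also carries a library number, 1476, apart from 1300, 1301 and 1302 of the others, and whether that marks a preparation is not given in the sources used here.

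**Figure D5:**
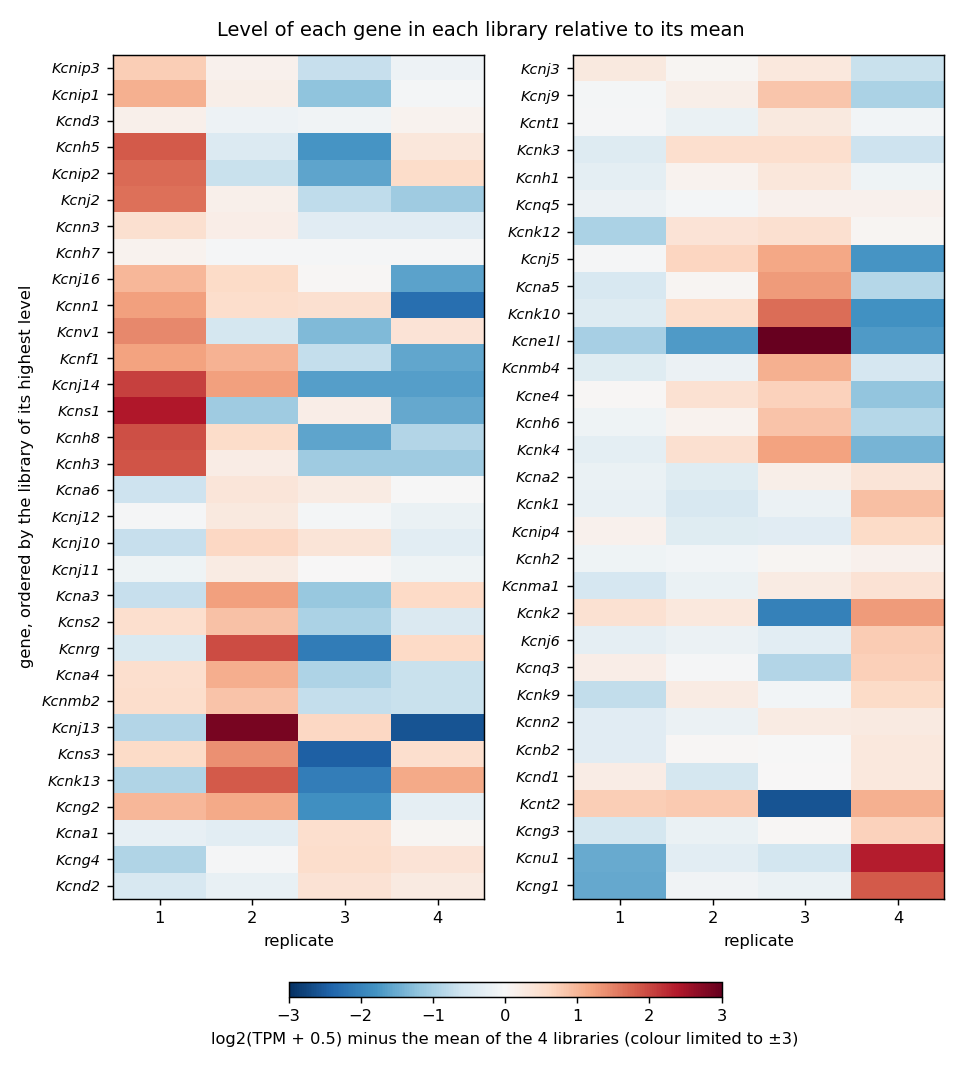
Level of the tested channel genes in each library (3 of the 66 are not shown), as log2(TPM + 0.5) minus the mean of its 4 libraries, with genes ordered by the library of their highest level. Kcnh2 and Kcnh7 stay near 0 in all 4 columns, whereas Kcnt2 and Kcnk2 depart in replicate 3, and Kcnh5 in replicates 1 and 3.

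A list of 34 genes whose products bind or regulate these channels was chosen for their known roles. Of these, 31 reached 1 CPM in every library. Calm2 and Calm3 encode calmodulin, the calcium sensor of SK and M-current channels, and stood at 2442 ± 924 and 1040 ± 283 CPM (SD, n = 4). Gnb1, a G protein beta subunit that opens the Kcnj3 type of channel, stood at 1068 ± 30.5 CPM. Ank3, the scaffold of the axon initial segment, stood at 899 ± 177 CPM. These partner levels are not divided by length. Per length, Ank3 was at 133 TPM, below several other partners such as Gng2 at 531 TPM. Lrrc26, an accessory subunit of BK channels in secretory cells, was lowest, with 1 count in replicate 2 alone. Of the 32 genes tested, edgeR called 0 in any library against the other 3, with 3, 0, 3 and 7 at an unadjusted p under 0.05 in replicates 1 to 4, where 3.17, 0.430, 7.15 and 15.4% of all genes were at such a p. Among these, Kcnab3, a beta subunit of Kv1 channels, had 188 CPM in replicate 1, against 89.6, 69.6 and 37.1 CPM in replicates 2, 3 and 4. Dlg2, a scaffold that gathers Kv1 channels, had 1146 CPM in replicate 4, against 615, 561 and 669 CPM in replicates 1, 2 and 3. Abcc8, the sulphonylurea receptor that joins Kcnj11, had 54.8 CPM in replicate 4, against 14.3, 15.4 and 20.7 CPM.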

How the data were processed

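Ribosome-bound RNA from 4 immunopurified libraries of 3 mice each was analysed. The authors deposited whole-number read counts per gene symbol for each library, and the submitters' processing notes name the tools STAR 2.0.0e and HTSeq with mm10 as build. Which annotation and library kit were used, and whether counting used strand, is not given in the sources used here. Reads of overlapping antisense genes may therefore not be separated, and 23 of the 87 channel genes overlap an exon on the opposite strand and 1 on its own strand. The counts carry no molecular identifiers, so zero limits cover counting error only. The summary lines of the counting program stayed out of totals and tests, with reads of no feature at 14.1 to 21.1%, reads not unique at 14.2 to 20.6% and ambiguous reads at 2.04 to 2.94% of counted reads. No pair of libraries agreed within sampling noise (34.9 to 127 chi-square units per degree of freedom).

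Lengths came from GENCODE release M21 on GRCm38, the same build, and 73.5% of names had one, 23898 in all, with all 87 channel genes among them. Rn45s has no length and is outside TPM. Fits used R 4.3.3, limma 3.58.1 (robust, trend), edgeR 4.0.16 (TMM, robust quasi-likelihood) and DESeq2 1.42.0, with a mean of at least 10 counts, a pseudocount of 0.5 CPM and a threshold of 0.05, two-sided. Fold changes and differences on the pseudocount scale understate those of low genes. The edgeR test of single libraries and the limma test against Kcna2 were tried on simulated counts. The other steps were not. Promoter sequences are from RefSeq (GRCm38.p6), for 64 of the 87 genes.

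The genes named are the reference genes, the 20 of highest mean level, the highest of each subfamily and those called in a library. Also named are those with a library set apart by Dixon's ratio and those with no count. Of the partner genes, those with the 5 highest levels in CPM and the lowest are named. A few of the genes so named are left unreported, though totals take them in. Other genes were named after their values were seen, to account for their subfamily. The members, lists and reference genes were chosen with earlier results of these data known, so no list is separate support for a pattern. Alternatives were other scalings, filters, pseudocounts and gene lengths, DESeq2, totals without Rn45s and leaving out each library.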

Additional observations from a re-analysis of the deposited data

Results flagged for a closer look

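Of 66 tested channel genes, 7 had 1 library far from the other 3 by Dixon's ratio, the gap of the extreme library to the nearest of the others over the whole range, above 0.829 for 4 samples. That is 10.6% of them, against 8.61% of the 13075 tested genes with a length, where chance alone gives about 1 in 20 groups. Kcne1l had 32.6 TPM in replicate 3, against 0.31, 0 and 0 TPM in replicates 1, 2 and 4 (ratio 0.99). Kcnmb4 had 15.3 TPM in replicate 3, against 5.38, 6.17 and 4.82 TPM in replicates 1, 2 and 4 (ratio 0.871). Kcnu1 had 10.6 TPM in replicate 4, against 0.26, 1.23 and 0.98 TPM in replicates 1, 2 and 3 (ratio 0.906). Kcnj6 had 35.4 TPM in replicate 4, against 17.1, 18.3 and 16.4 TPM (ratio 0.899), and Kcnk1 had 353 TPM in replicate 4, against 162, 135 and 168 TPM (ratio 0.848). Kcns1 had 7.13 TPM in replicate 1, against 0.19, 1.16 and 0 TPM in replicates 2, 3 and 4 (ratio 0.837). Kcnh7 had 8.95 TPM in replicate 1, against 7.95, 7.96 and 8.08 TPM (ratio 0.868), which is a small step within a narrow spread. Kcne1l, Kcnu1 and Kcns1 reached the mean of 10 counts only through the library named, so their standing apart follows from that filter. With edgeR none of these passed the adjusted threshold in the library named, and DESeq2 called Kcnk1, and Kcne1l, from which nothing is read.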

How the results depend on the processing

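No paired analysis was possible because there is only 1 group of libraries. Of 107 called differences of a single gene, 84 kept direction and call under every alternative run, and 4 turned in direction under one. The 107 include the calls against Kcnh2, Kcnma1, Kcnj3 and Kcnk1, whose lower direction follows from the choice of reference. The counts of channel genes called in 1 library were 0 under all scalings and the other count filter. With no filter they were 1 in replicate 1, 3 in replicate 3 and 2 in replicate 4, and with DESeq2 they were 4 in replicate 3 and 2 in replicate 4. Leaving out a library gave 0 to 1 in replicate 3. Against Kcnk1, 11 genes were called with no filter, when more genes are tested. Against Kcnd2 the count ranged from 2 to 4 with a library left out. The summed level was 2704 TPM per longest transcript and 3777 CPM with no division by length.

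Directions turned as follows, and the cause was not tested. Against the median gene, with no filter (which lowers the median gene by construction), Kcna3 was at 0.45, Kcnip2 at 0.087, Kcnj6 at 0.59 and Kcnk12 at 0.23. Per longest transcript Kcnh1 was at -0.073, Kcnj6 at 0.49 and Kcnq5 at -0.17. Per coding length Kcnh1 was at -0.073, Kcnh5 at -0.73, Kcnj6 at 0.72, Kcnk9 at 0.59 and Kcnq5 at -0.17. With no division by length Kcnh7 was at 0.27, Kcnj6 at 0.59, Kcnk9 at 0.39 and Kcnq3 at 0.66. With a library left out, Kcnh5 ranged from -0.089 to 1.15 (lowest without replicate 1), Kcna3 from -0.67 to 0.10 (highest without replicate 3) and Kcnk2 from -0.23 to 0.93 (lowest without replicate 4). Kcna1 against Kcna2 was at -0.84 per coding length and -0.86 with no division by length, and Kcnd3 against Kcnd2 at 0.044 with no division by length. Kcnip1 against Kcnd2 was at 0.073 per longest transcript and 1.21 per coding length, and ranged from -1.04 to 0.026 with a library left out. Kcnip3 against Kcnd2 was at 0.20 and 0.44, at -0.71 with no division by length, and ranged from -0.58 to 0.21. Kcnt1 against Kcnma1 was at 0.00342 per longest transcript and -0.86 per coding length and with no division by length, both called, and ranged from -0.18 to 0.15 with a library left out. Genes with few counts, such as Kcne1l and Kcnt2, are limited by depth in the libraries where they are near 0.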
